A study of Mus musculus with 6 samples.

Results

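The genes described here are Lcn2 and 7 genes of cellular iron handling (Fth1, Ftl1, Tfrc, Slc40a1, Slc11a2, Steap3 and Ncoa4). They were taken by name through their mouse Ensembl identifiers, 8 of the 53465 identifiers in the table, and the rule sets no threshold on a measured value. The 6 libraries sequenced were made from EMT6, a cell line of mouse mammary carcinoma. The 3 PVITRO libraries came from parental cells kept with an IgG isotype control, and the 3 PTRVITRO libraries from cells exposed to αPD-L1, an antibody that binds PD-L1, each at 0.5 μg/ml for more than 4 weeks in culture without immune cells or a host. PTRVITRO therefore denotes long exposure to the antibody, not resistance acquired in an animal. The study describes its replicates as technical unless stated otherwise and the labels name no separate cultures, so p-values compare libraries and do not cover variation between independently treated cultures. Fewer cells expressing a gene and less RNA per cell cannot be told apart in such bulk libraries.

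LCN2 (lipocalin 2) is a small secreted protein that binds siderophores, the iron carriers of bacteria, and thereby withholds or carries iron, and it is known as an acute-phase and inflammatory product of epithelial and tumor cells. Most cells take up transferrin-bound iron through the transferrin receptor (Tfrc). In the endosome STEAP3 reduces the iron and DMT1 (Slc11a2) moves it to the cytosol, where ferritin heavy and light chains (Fth1, Ftl1) store it, NCOA4 delivers ferritin for breakdown, and ferroportin (Slc40a1) exports iron from the cell. When iron is scarce, iron regulatory proteins bind a hairpin called the iron-responsive element (IRE), which blocks translation when it lies in a 5′ UTR and stabilizes the mRNA when it lies in a 3′ UTR.

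Hairpins that match the canonical IRE pattern are shown because they are the sequence through which iron acts on these mRNAs. UTRs of the principal GENCODE M21 transcripts (GRCm38) were searched on the transcript strand for an unpaired C, a stem of 5 bases, a loop CAGTGN and 5 bases that pair with the stem, with G–T pairs allowed. Capitals mark the loop of 6 bases in each window of 30 bases, written as DNA from 5′ to 3′. Fth1, Ftl1 and Slc40a1 carry a single match each, in the 5′ UTR:
Fth1, chr19:9982732-9982761, plus strand: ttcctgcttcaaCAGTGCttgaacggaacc
Ftl1, chr7:45459778-45459807, minus strand: gtcttgcttcaaCAGTGTttgaacggaaca
Slc40a1, chr1:45925464-45925493, minus strand: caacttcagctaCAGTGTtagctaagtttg
Tfrc carries 4 matches in its 3′ UTR, all on the plus strand of chromosome 16:
Tfrc, chr16:32631219-32631248: aattatcggaagCAGTGCcttccataatta
Tfrc, chr16:32631598-32631627: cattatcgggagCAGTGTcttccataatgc
Tfrc, chr16:32631663-32631692: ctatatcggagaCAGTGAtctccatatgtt
Tfrc, chr16:32631710-32631739: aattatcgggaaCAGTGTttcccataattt

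The UTRs of Lcn2, Slc11a2, Steap3 and Ncoa4 held 0 matches, which says only that these letters are not in these principal transcripts. Some transcripts of Slc11a2 are known to carry a 3′ IRE with a bulged stem, which this pattern does not cover. Over all protein-coding genes with a UTR, the pattern was found in the 5′ UTR of 21 of 20538 genes (0.102%) and in the 3′ UTR of 110 of 20687 genes (0.532%). A match is a description of sequence and was not tested for protein binding here.

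The total count per library was between 23417980 and 30115549 in PVITRO and between 17757341 and 32426739 in PTRVITRO, and the 8 genes held between 0.574% and 0.657% of it. A count of 3, taken as the floor, corresponds to 0.0925 to 0.169 CPM (counts relative to the library size) and covers counting error only. All CPM values that follow also carry the upper-quartile scaling of the libraries. The cells expressed Krt8, Krt18, Vim, Fn1 and Col1a1, while of the epithelial markers Epcam was at 1.24 to 2.41 CPM and Cdh1 reached at most 1 count. Summed mammary and mesenchymal markers (7 of 10 tested) were at 10890 to 11790 CPM in PVITRO and at 10120 to 10560 CPM in PTRVITRO, and Fn1 made up most of the sum. Within the list 0 genes were called, 2 were higher (Krt18, log2 fold change 0.17, and Epcam, 0.48) and 3 lower (Fn1, -0.18, Col1a1, -0.18, and Krt14, -0.25) in PTRVITRO at an unadjusted p below 0.05, where 11.4% of all tested genes had such a p. These 5 had groups that did not overlap, against 17.6% of all tested genes. The part of these markers in the results was not tested. Among 10 myeloid markers only Cd68 exceeded 1 CPM in mean, the summed level was 12.9 to 14.1 CPM in PVITRO and 12.01 to 13.9 CPM in PTRVITRO, and Ptprc, Adgre1 and Elane were at 0 in every library. Summed lymphoid, endothelial and erythroid markers stayed at or below 0.318 CPM.

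The comparison of PTRVITRO with PVITRO asked whether exposure to the antibody alone alters these transcripts in tumor cells. With the edgeR quasi-likelihood test, adjusted by Benjamini-Hochberg over 14217 genes, all 8 genes were tested and 0 were called at an adjusted p below 0.05, where 0.246% of all tested genes were called (0.0985% higher and 0.148% lower in PTRVITRO). At an unadjusted p below 0.05 there was 1 of the 8, Slc11a2, against 11.4% of all tested genes. The groups did not overlap in 1 of the 8, again Slc11a2, against 17.6% of all tested genes. The median log2 fold change of the 8 was 0.05 (from -0.17 to 0.08, 6 positive and 2 negative), and that of all tested genes was -0.004. In the other 7 genes the groups overlapped.

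**Figure D1:**
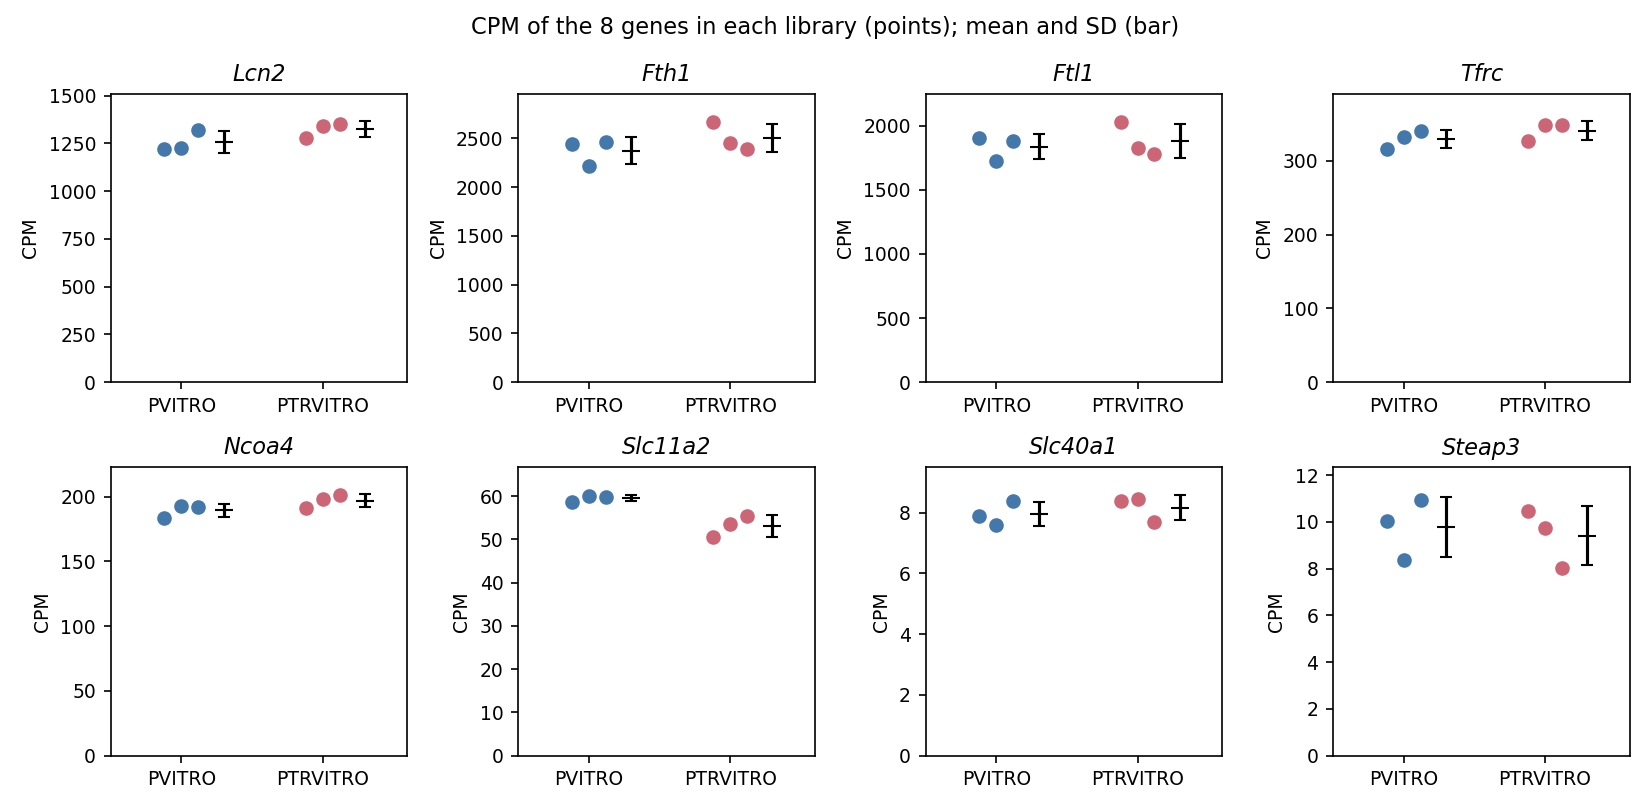
CPM (axes from 0) of the 8 genes in each of the 6 libraries, with replicates 1 to 3 from left to right as points and the mean and SD (n = 3) as a bar beside them. The Slc11a2 points of PTRVITRO (50.5 to 55.5 CPM) lie under those of PVITRO (58.7 to 60.0 CPM), and the points overlap between groups for the other 7 genes.

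Lcn2 (ENSMUSG00000026822.14, chr2:32384633-32388252, minus strand) had 1221, 1228 and 1321 CPM in PVITRO replicates 1 to 3. In PTRVITRO it had 1279, 1343 and 1354 CPM. The PVITRO replicate 3 library lay above PTRVITRO replicate 1, so the groups overlapped. The fitted log2 fold change was 0.08 (SE 0.0383, edgeR p 0.0703, adjusted p 0.490). The 95% interval of the fold ran from 0.995 to 1.12. With 24134 to 41463 reads counted for Lcn2 per library, the SD was 4.44% of the mean in PVITRO and 3.08% in PTRVITRO. Lcn2 was above 0 in log2 fold change in each of 14 fits that varied the scaling, the tool, the filter, the block or the libraries, and it was called in 0 of them. At an unadjusted p below 0.05 it stood in 5 of the 14, with p between 0.0113 and 0.183.

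The ferritin chains were the most abundant of these transcripts. Fth1 (ENSMUSG00000024661.6, chr19:9980598-9985098, plus strand), which encodes the ferroxidase chain, had 2440, 2215 and 2464 CPM in PVITRO and 2669, 2453 and 2389 CPM in PTRVITRO. Ftl1 (ENSMUSG00000050708.16, chr7:45457944-45459884, minus strand), the light chain that aids mineralization of stored iron, had 1904, 1726 and 1883 CPM in PVITRO and 2032, 1829 and 1782 CPM in PTRVITRO. For both chains PVITRO replicate 2 was the lowest library and PTRVITRO replicate 1 the highest, and the groups overlapped. Fth1 had a fitted log2 difference of 0.08 (SE 0.0491, adjusted p by edgeR 0.593), with a fold interval from 0.979 to 1.14. Ftl1 had one of 0.03 (SE 0.0517, adjusted p by edgeR 0.854), with a fold interval from 0.946 to 1.11. The direction of Ftl1 turned without PVITRO replicate 2 (-0.009) and without PTRVITRO replicate 1 (-0.024).

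The chains moved together from library to library, so that their ratio varied less than either level. The log2 ratio of Fth1 to Ftl1 was 0.36, 0.36 and 0.39 in PVITRO and 0.39, 0.42 and 0.42 in PTRVITRO. Its means were 0.37 ± 0.0164 and 0.41 ± 0.0171 (SD, n = 3). Every PTRVITRO library lay above every PVITRO library, but only narrowly for PTRVITRO replicate 1 (0.394) against PVITRO replicate 3 (0.388). This difference was not tested, and in level the groups did not overlap for 17.6% of all tested genes. The log2 ratio of Tfrc to Fth1, in CPM, was between -2.95 and -2.74 in PVITRO and between -3.03 and -2.78 in PTRVITRO, and it overlapped between the groups.

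Reads of Ftl1 can be shared with copies. A search at 95% identity over 200 bases found 7 other annotated genes, and all were summed with Ftl1 as its copies. Not all are separate copies: Gm10252 overlaps the Ftl1 locus, and Gm47428 is an antisense gene within the span of Ftl1-ps1. Ftl1-ps1 (99.6% over 910 bases, chr13) was counted at 123.1 ± 16.4 CPM in PVITRO and 118.6 ± 8.06 CPM in PTRVITRO. Gm15590 was counted at 52.3 ± 4.44 and 58.1 ± 10.6 CPM, and Ftl2-ps at 17.2 ± 8.10 and 14.7 ± 2.08 CPM. How much of this signal belongs to Ftl1 itself cannot be read from the table. Ftl1 held 90.2% to 91.1% of the sum, which was 2031 ± 106 CPM in PVITRO and 2074 ± 138.6 CPM in PTRVITRO (log2 difference 0.03, two-sided exact permutation p = 0.7, n = 3 per group, where 20 arrangements allow no p below 0.1). The direction of the sum turned without the same libraries as that of Ftl1. For Fth1 the annotated pseudogenes Fth-ps2 and Fth-ps3 held at most 3 counts in a library and left the sum at 2373 ± 137.4 and 2504 ± 146.8 CPM (log2 difference 0.08, exact permutation p = 0.5, n = 3 per group).

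Tfrc (ENSMUSG00000022797.15, chr16:32608920-32632794, plus strand), the receptor whose mRNA carries the 4 hairpins shown above, had 316.5, 332.1 and 340.3 CPM in PVITRO and 326.5, 348.7 and 348.5 CPM in PTRVITRO. The groups overlapped. Its log2 fold change was 0.05 (SE 0.0401, edgeR adjusted p 0.687), with a 95% interval from -0.04 to 0.14. Of the 4 mRNAs with a match to the pattern, Tfrc (3′ UTR) and Fth1, Ftl1 and Slc40a1 (5′ UTR), 0 were called (0.246% of all tested genes), and their log2 fold changes lay between 0.03 and 0.08. The table measures mRNA, so it does not show translation, the step at which a 5′ hairpin acts.

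Slc11a2 (ENSMUSG00000023030.16, chr15:100387898-100425072, minus strand), the endosomal and plasma membrane iron importer DMT1, was the one member whose groups stood apart. It had 58.7, 60.0 and 59.8 CPM in PVITRO. In PTRVITRO it had 50.5, 53.5 and 55.5 CPM. Every PTRVITRO library lay below every PVITRO library, and the means were 59.5 ± 0.679 and 53.2 ± 2.53 CPM (SD, n = 3). The fold was 0.891, with a 95% interval from 0.832 to 0.955 (log2 fold change -0.17, SE 0.0452, unadjusted edgeR p 0.00368). It did not pass the adjustment over all genes (adjusted p 0.191). In all 14 fits its unadjusted p was below 0.05 (0.00234 to 0.0216) and its log2 fold change negative (-0.19 to -0.13 with 1 library left out), and it was called in 0 of them, with adjusted p between 0.108 and 0.490.

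The ferrireductase of the endosome and the iron exporter were the scarcest members. Steap3 (ENSMUSG00000026389.16, chr1:120190757-120272705, minus strand) had 10.1, 8.38 and 10.9 CPM in PVITRO and 10.5, 9.74 and 8.03 CPM in PTRVITRO. It had 143 to 340 counts per library and the widest spread of the 8 genes, an SD of 13.2% of the mean in PVITRO and 13.4% in PTRVITRO. Its log2 fold change was -0.03 (SE 0.123, edgeR adjusted p 0.951), with an interval from -0.30 to 0.24. The sign turned without PVITRO replicate 3 (0.06) and without PTRVITRO replicate 3 (0.06). Slc40a1 (ENSMUSG00000025993.10, chr1:45908068-45926523, minus strand) had 7.88, 7.61 and 8.39 CPM in PVITRO and 8.39, 8.44 and 7.69 CPM in PTRVITRO, from 137 to 272 counts. Its groups overlapped, at 0.05 in log2 fold change (SE 0.0927, adjusted p by edgeR 0.897) and an interval from -0.16 to 0.25. These 2 intervals were the widest of the 8 genes.

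Ncoa4 (ENSMUSG00000056234.15, chr14:32159865-32179855, plus strand), the cargo receptor that takes ferritin to the lysosome, had 183.7, 192.7 and 191.9 CPM in PVITRO and 191.6, 198.3 and 201.0 CPM in PTRVITRO. The lowest PTRVITRO library lay just below the 2 higher PVITRO libraries. The log2 fold change was 0.06 (SE 0.0368, edgeR adjusted p 0.608), with an interval from -0.03 to 0.14. Ncoa4 has 1 processed copy, Gm6768 (chr12:119260978-119262855), identical over 99.9% of 1878 bases, and Ncoa4 held 94.5% to 96.6% of their sum. The copy, chosen after its values were seen, was counted at 10.2, 11.3 and 9.47 CPM in PVITRO and 8.17, 7.52 and 7.07 CPM in PTRVITRO (log2 fold change -0.44, SE 0.0992, edgeR p 0.00109, adjusted p 0.124), so it and Ncoa4 had opposite signs. The sum was 199.7 ± 5.20 CPM in PVITRO and 204.6 ± 4.27 CPM in PTRVITRO (log2 difference 0.04, exact permutation p = 0.3, n = 3 per group). Whether shared reads were divided differently between these 2 genes cannot be told from the table.

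**Figure D2:**
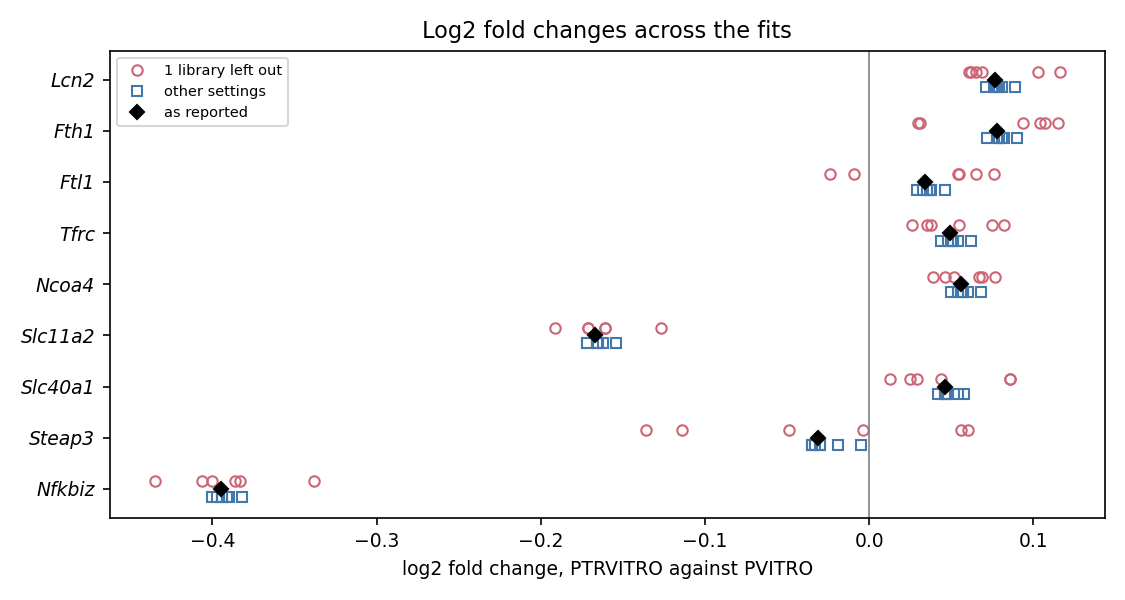
Log2 fold change of PTRVITRO against PVITRO in the 14 fits, for the 8 genes and Nfkbiz: the value reported (diamond), other settings of scaling, tool, filter and block (squares) and fits with 1 library left out (circles). Slc11a2 and Nfkbiz lie below 0 in every fit, Ftl1 and Steap3 lie on both sides of it, and the other 5 genes lie above it.

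Levels were compared between genes as CPM per kilobase of the principal transcript. Fth1 stood at 2554 ± 147.9 in PVITRO and 2695 ± 158.0 in PTRVITRO, at rank 6 of 21823 protein-coding genes, and Ftl1 at 1898 ± 100.4 and 1943 ± 137.2, at rank 9. Lcn2 followed at 1373 ± 61.0 and 1449 ± 44.6, at rank 25, with Ftl1 mRNA 1.38-fold above it in PVITRO. Tfrc was at 67.4 ± 2.48 and 69.8 ± 2.61, and Lcn2 in PVITRO stood 20.4-fold above it. Ncoa4 was at 46.6 ± 1.23 and 48.5 ± 1.19, and Slc11a2 at 19.7 ± 0.225 and 17.6 ± 0.835. Slc40a1, at 2.36 ± 0.118 and 2.43 ± 0.124, and Steap3, at 1.90 ± 0.250 and 1.83 ± 0.245, ended the order. No neighbours in it overlapped over the 6 libraries. With the length of all annotated exons instead, 2 pairs changed places: Ftl1 (1387) then stood above Fth1 (703) and Steap3 (1.68) above Slc40a1 (0.896). The order inside these pairs thus depends on which length is used, and so does the gap between Lcn2 and Tfrc in PVITRO, which was 8.99-fold with all exons. Lcn2 itself was at 492 with all exons.

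**Figure D3:**
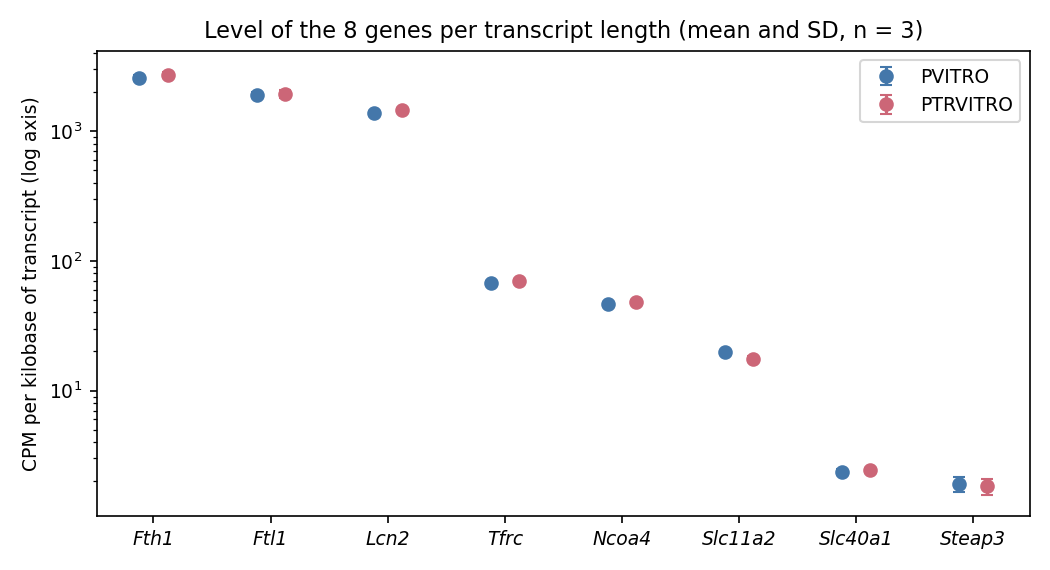
Level of the 8 genes as CPM per kilobase of principal transcript on a log axis, with points at the mean of 3 libraries and bars for the SD, PVITRO and PTRVITRO side by side. Fth1, Ftl1 and Lcn2 form the upper end at 1373 or more, and Slc40a1 and Steap3 the lower end near 2.

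The other genes of iron metabolism were counted from 4 lists of 71 genes, of which 55 were tested. These lists were chosen with earlier results of these data known, so their shares are a description only. Of the 55 genes, 0 were called, 9 had an unadjusted p below 0.05 (16.4%, against 11.4% of all tested genes) and 12 had groups that did not overlap (21.8%, against 17.6%). Among 9 tested genes of iron uptake and release, 2 were higher and 3 lower in PTRVITRO at an unadjusted p below 0.05, and the median log2 fold change was -0.12. Groups that did not overlap were found in 6 of these 9 genes (17.6% of all tested genes), which is 6 of the 12 in the 4 lists. Scara5, a receptor for ferritin, was at 273.1 ± 7.29 CPM in PVITRO and 244.7 ± 4.02 CPM in PTRVITRO (log2 fold change -0.16, SE 0.0347, edgeR p 0.000856, adjusted p 0.109). Cp, the ferroxidase ceruloplasmin that works with ferroportin, was at 1244 ± 48.4 and 1142 ± 62.3 CPM (-0.12, adjusted p 0.304). In both genes every PTRVITRO library lay below every PVITRO library, and of the 14 fits, both were called in the one with no filter on low counts (adjusted p 0.0258 for Scara5 and 0.0454 for Cp). Steap1, of the same family as Steap3, differed by 0.09 on the log2 scale (adjusted p 0.353), and Slc39a14, a carrier of iron not bound to transferrin, by -0.02 (adjusted p 0.904). The filter on low counts removed 12 genes of this list, and transferrin (Trf), hephaestin (Heph) and hepcidin (Hamp, Hamp2), named here after their values were seen, had 0 counts in every library.

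Of 7 tested iron sensors and chaperones 0 were called (0.246% of all tested genes) and 1 had an unadjusted p below 0.05 (11.4% of all tested genes). This was the iron chaperone Pcbp2, at 711.8 ± 18.5 CPM in PVITRO and 669.0 ± 30.2 CPM in PTRVITRO (log2 fold change -0.09, edgeR adjusted p 0.416). Aco1, which encodes an iron regulatory protein that binds the hairpins shown above, stood at -0.11 in log2 fold change (adjusted p 0.565). Fbxl5, which targets the other iron regulatory protein for breakdown in iron-replete cells, had 0.06 (adjusted p 0.601), and the chaperone Pcbp1 -0.05 (adjusted p 0.632). The groups stood apart in 0 of the 7 genes (17.6% of all tested genes).

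In the heme list 18 genes were tested, 0 were called (0.246% of all tested genes) and the median log2 fold change was 0.02. An unadjusted p below 0.05 was found for 1 gene (11.4% of all tested genes), and the groups did not overlap in 2 (17.6% of all tested genes). Abcg2, a porphyrin exporter, was at 15.3 ± 1.88 CPM in PVITRO and 12.6 ± 0.990 CPM in PTRVITRO (-0.29, edgeR adjusted p 0.292) and was the gene with such a p, also without overlap. Hmox1, the inducible heme oxygenase that frees iron from heme, was at 62.1 ± 1.46 and 58.4 ± 1.82 CPM (-0.09, adjusted p 0.465), without overlap between the groups. Flvcr1, a heme exporter, had 0.14 (adjusted p 0.444), Slc48a1, a heme transporter of lysosomes, 0.07 (adjusted p 0.768) and Cpox, of heme synthesis, 0.03 (adjusted p 0.872).

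All 21 genes of mitochondrial iron and iron-sulfur assembly were tested, with 0 called (0.246% of all tested genes), a median of 0.04 and 2 genes higher in PTRVITRO at an unadjusted p below 0.05 (11.4% of all tested genes). The groups did not overlap in 4 of the 21 (17.6% of all tested genes). The 2 genes were Isca2, an assembly factor, at 32.0 ± 1.23 and 35.4 ± 0.550 CPM (0.14, edgeR adjusted p 0.292), and Cisd2, an iron-sulfur protein of the endoplasmic reticulum and mitochondria, at 41.0 ± 1.81 and 45.03 ± 1.07 CPM (0.14, adjusted p 0.304). Cisd1 had 0.09 (adjusted p 0.441), the abundant chaperone Hspa9 0.06 (adjusted p 0.513) and the iron importer mitoferrin 1 (Slc25a37) -0.004 (adjusted p 0.985).

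**Figure D4:**
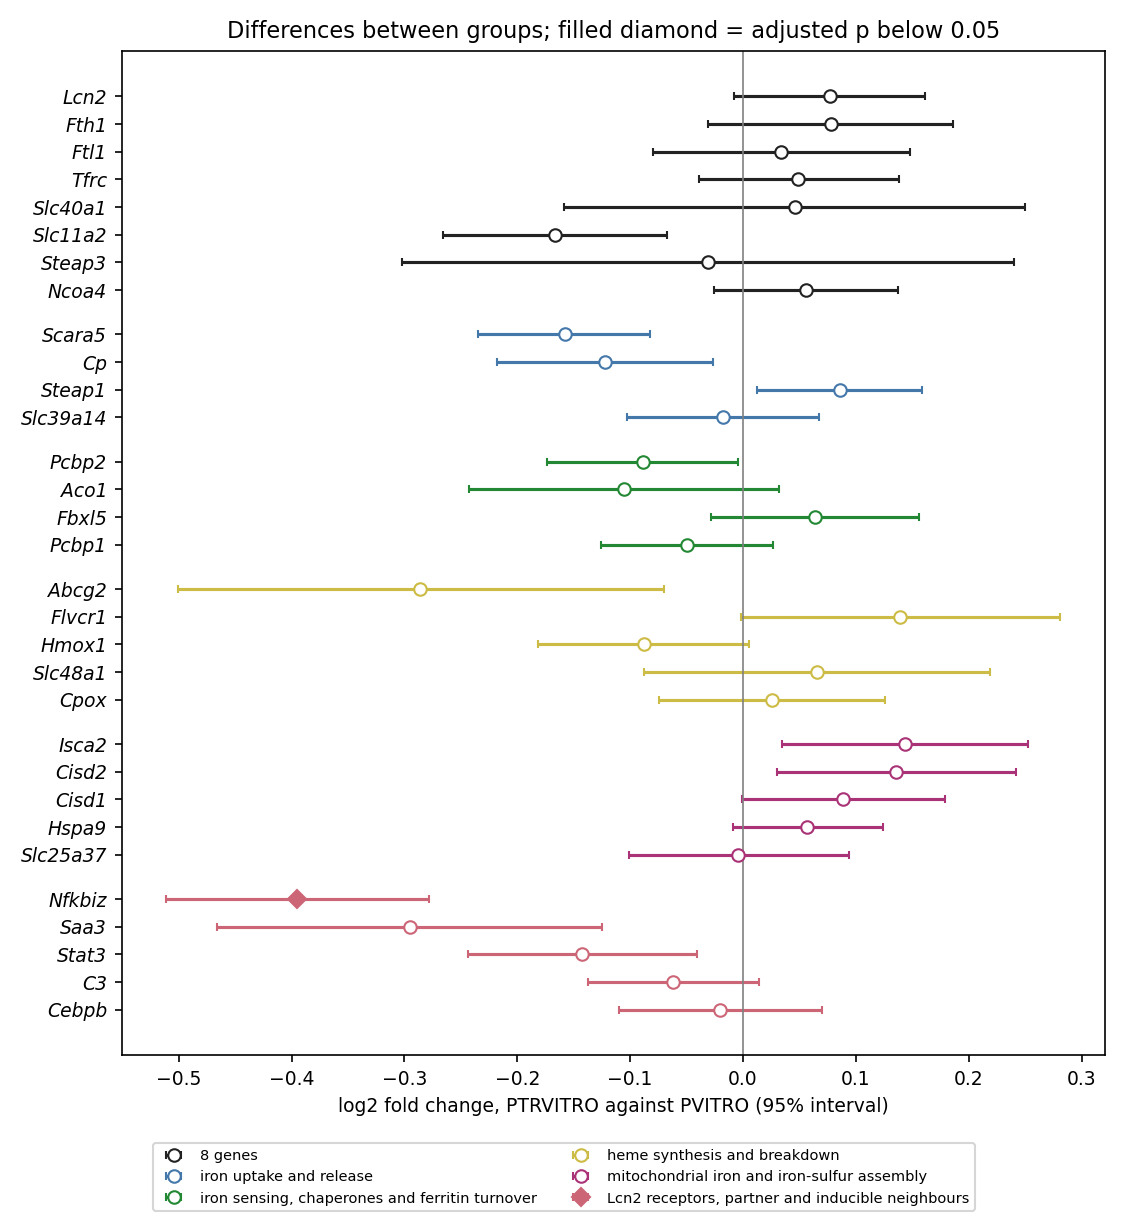
Log2 fold change of PTRVITRO against PVITRO for the 8 genes and the named genes of the 5 lists, with 95% intervals from the edgeR fit (n = 3 per group). The one filled diamond, for an adjusted p below 0.05, is Nfkbiz at -0.39, and the 8 genes lie between -0.17 and 0.08.

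Around Lcn2, a list of 17 genes held its receptors, its partner MMP9 and genes that are induced along with it in inflammation. Of the 10 that were tested, 1 was called, where 0.148% of all tested genes were called in the same direction. At an unadjusted p below 0.05, 3 were lower and 0 higher in PTRVITRO (11.4% of all tested genes in either direction). The same 3, Nfkbiz, Saa3 and Stat3, had groups that did not overlap (17.6% of all tested genes). The list was chosen with earlier results of these data known, so these shares are a description only. The called gene was Nfkbiz (ENSMUSG00000035356.16), which encodes IκBζ, a nuclear cofactor of NF-κB known from other cells to be needed for Lcn2 induction. Nfkbiz fell, from 68.5, 78.6 and 72.6 CPM in PVITRO to 55.3, 55.1 and 57.2 CPM in PTRVITRO (log2 fold change -0.39, SE 0.0527, edgeR adjusted p 0.0148). It was called in 11 of the 14 fits and missed the threshold without PVITRO replicate 3 (adjusted p 0.0997), without PTRVITRO replicate 2 (0.156) and without PTRVITRO replicate 3 (0.0602), while its log2 fold change stayed between -0.43 and -0.34.

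Nfkbiz and Lcn2 had opposite signs. The log2 ratio of Nfkbiz to Lcn2 was -4.16, -3.96 and -4.18 in PVITRO and -4.53, -4.61 and -4.57 in PTRVITRO. The ratio separates the groups because Nfkbiz does, and it adds nothing on Lcn2, whose own groups overlapped. The 10 tested genes of the list had a median log2 fold change of -0.07, with 2 positive and 8 negative, against a median of -0.004 over all tested genes. The others given here were named after their values were seen. Saa3, an acute-phase protein, had 12.03, 12.1 and 11.7 CPM in PVITRO and 9.47, 9.53 and 10.3 CPM in PTRVITRO (log2 fold change -0.30, edgeR p 0.00292, adjusted p 0.178). Stat3 had -0.14 (adjusted p 0.262), complement C3 -0.06 (adjusted p 0.535) and the transcription factor Cebpb -0.02 (adjusted p 0.897). The positive values were those of the transcription factor Cebpd, at 0.14 (adjusted p 0.711), and Socs3, an inhibitor of cytokine signaling, at 0.07 (adjusted p 0.777). None of these 6 genes was called. Untested genes of the list were also picked after their values were seen. The receptor Slc22a17 had at most 1 count in a library and the receptor Lrp2 between 2 and 10, and neither was tested. Il1b had at most 2 counts and S100a9 0 in a library. No rise above these counts was seen in PTRVITRO, and a decrease was not detectable at this depth.

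**Figure D5:**
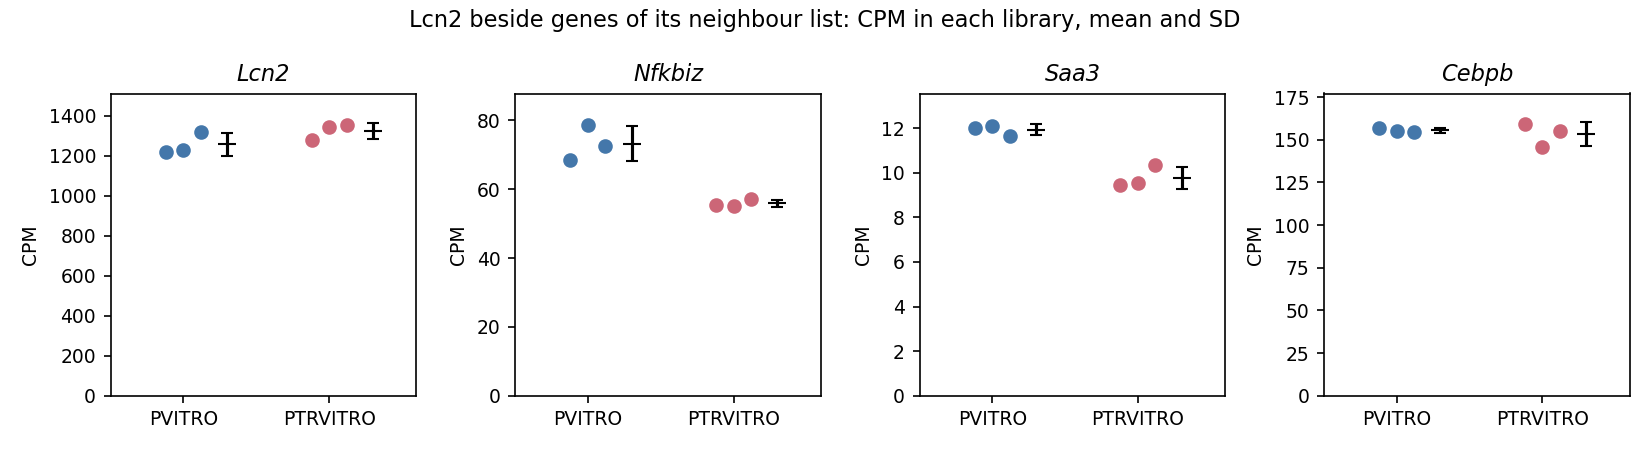
CPM (axes from 0) of Lcn2 and 3 genes of its list in each library, with points for replicates 1 to 3 and the mean and SD (n = 3) as a bar. Nfkbiz lies between 68.5 and 78.6 CPM in PVITRO and between 55.1 and 57.2 CPM in PTRVITRO, Saa3 also does not overlap, and Lcn2 and Cebpb overlap between the groups.

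Genes that followed Lcn2 across the 6 libraries were ranked by Pearson r of log2(CPM + 0.1) among 11804 genes with a mean count of at least 50. The closest were Sav1 (r = 0.995), Denr (0.994), Atg4b (0.988), Ube2l3 (0.980) and Gch1 (0.980), with log2 fold changes from 0.04 to 0.09. Among the members, Tfrc (0.890) and Ncoa4 (0.822) were nearest to Lcn2, and Fth1 (0.253) and Ftl1 (-0.064) were far from it. For Tfrc the closest genes were Zfp65 (0.993), Pola1 (0.992), Pde12 (0.990), Mpp6 (0.984) and Car6 (0.983), and its r with Ncoa4 was 0.931. The points share 6 libraries and their depths, and the top genes were selected for likeness, so these values are a description.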

How the data were processed

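Polyadenylated RNA of 6 EMT6 libraries (3 PVITRO, 3 PTRVITRO) was sequenced as stranded libraries. Per gene, the deposited values are estimated counts (expected counts of RSEM 1.3.1), which the authors obtained after FastQC 0.11.5 checks from reads aligned with STAR 2.6.0a to GRCm38. They are not scaled between samples, and whether strand was given to RSEM is not stated. All sample columns were used.

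Values were rounded to whole counts, filterByExpr (at least 10 counts, total of at least 15) removed sparse genes, and libraries were scaled by the upper quartile, as in the study. The test was the quasi-likelihood F test in edgeR 4.0.16 (R 4.3.3), group being the only term, with Benjamini-Hochberg adjustment over 14217 genes and a threshold of 0.05. Intervals of 95% were taken from the standard error. Summed genes were compared by exact permutation. Values are mean ± SD (n = 3). Copies were searched with BLAST 2.17.0. Positions and UTRs came from GENCODE M21, which holds 53360 of the 53465 identifiers.

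The members and lists were chosen with earlier results of these data known. Named list genes are the called ones, or else the 3 with the smallest p and the 2 with the highest CPM. Other list genes were named after their values were seen, and markers by level. Alternatives were TMM, no scaling factor, DESeq2 1.42.0, limma-voom (limma 3.58.1), no filter, a minimum of 10 counts in all 6 libraries, a block for the replicate number, and leaving out each library. Exon-union lengths, the Ncoa4 sum and Nfkbiz across fits were added after seeing the data. The steps were tested on simulated data.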

Additional observations from a re-analysis of the deposited data

How the results depend on the processing

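For the 8 genes, 56 of 56 results under other settings kept their direction and stayed short of the threshold, and 44 of 48 did with 1 library left out. The other 4 changed sign: Ftl1 was at -0.009 without PVITRO replicate 2 and -0.024 without PTRVITRO replicate 1, and Steap3 at 0.056 without PVITRO replicate 3 and 0.06 without PTRVITRO replicate 3. Ftl1 summed with its copies was at -0.015 and -0.024 without the same libraries as Ftl1. With 1 library left out, log2 fold changes were between 0.061 and 0.116 for Lcn2, 0.03 to 0.115 for Fth1, -0.024 to 0.076 for Ftl1, 0.026 to 0.082 for Tfrc, 0.013 to 0.086 for Slc40a1, -0.191 to -0.127 for Slc11a2, -0.136 to 0.06 for Steap3 and 0.039 to 0.077 for Ncoa4, and the summed difference from 0.029 to 0.11 for Fth1, -0.024 to 0.067 for Ftl1 and 0.014 to 0.052 for Ncoa4. The 35 genes called over the whole table became 400 without a filter, 111 in DESeq2, 54 where a minimum of 10 counts was asked of all 6 libraries, and from 8 (without PTRVITRO replicate 3) to 64 (without PVITRO replicate 2) with 1 library left out, also 9 without PVITRO replicate 3, 11 without PVITRO replicate 1 and 12 without PTRVITRO replicate 2. The iron uptake and release list gained 2 calls without a filter, and the Lcn2 list held from 0 to 1, with 0 without PVITRO replicate 3, PTRVITRO replicate 2 or PTRVITRO replicate 3. The causes were not tested. Same-numbered libraries had correlations of 0.109, 0.095 and -0.0556 in their deviations from the group means. Libraries with different numbers were not compared, so these values do not settle whether the replicate numbers pair the libraries. With the replicate number as a block, 68 genes were called in all, against 35 without it, and none was a member. Lcn2 was then at 0.077 (edgeR p 0.0237, adjusted p 0.280) and Slc11a2 at -0.165 (adjusted p 0.160). Over all tested genes, the median log2 fold change was -0.0034 with TMM and 0.0084 with no scaling factor, and between -0.0109 and 0.0042 with 1 library left out. The filter removed 16 genes of the iron lists, 9 of them at 0 counts in every library, and at this depth low expression of these cannot be told from none. Steap3 had the widest interval of the members, with a biological coefficient of variation of 9.20%, against 5.70% for Slc40a1, which had fewer counts.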
